A study of Mus musculus with 9 samples.

Results

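The transcript response to hypoxia and reoxygenation was examined in primary renal tubular epithelial cells of C57BL/6 mice, the cells that line the nephron. H/R cells were kept for 6 h in glucose-free medium at 1.0% oxygen and then returned to complete medium and normal conditions for 18 h, after which total RNA was sequenced. Sham cells were the controls without that exposure. Low oxygen, lack of glucose and the changes of medium came together in the H/R cells, so their effects cannot be told apart. Each group had 3 libraries. The other group of 3 libraries, EGR1OV, carried a plasmid that expresses the transcription factor Egr1 from a CMV promoter, and it entered here only for the shared estimate of the spread and for values set side by side. The protocol text, which all samples share, describes a transfection, while the study gives the Sham cells as untreated and names no plasmid for the H/R cells. Nothing says that replicates were separate cultures or animals, so p-values measure only the spread between these libraries, which may be technical.

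The genes described are the protein-coding genes whose mean over the 6 Sham and H/R libraries was at least 1 FPKM (reads of a gene divided by its exon length and by the total of the library, a level per unit of length). They numbered 10840 of 18266 protein-coding genes and of 31167 genes in the deposited table. Reep1 and Aasdh lay just inside that limit at 1.00 FPKM, and Ifit3b and Sytl4 just outside it. All 10840 were tested by limma on log2(FPKM + 1), and a gene was called when its adjusted p was under 0.05 and its change at least 1.2-fold on that scale. Every adjusted p below is from that limma fit with Benjamini-Hochberg adjustment over 13985 genes, every log2 value is a difference between H/R and Sham on the log2(FPKM + 1) scale ± SE, and folds are ratios of mean FPKM.

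Cells that run short of oxygen stop hydroxylating the alpha subunits of hypoxia-inducible factor (HIF), which then escape degradation and switch on genes for glycolysis, lactate export, vessel growth and mitophagy. When oxygen returns, the sensors resume work and HIF protein is lost, while transcripts already made decay at their own rates. Tubular epithelium is known for its reliance on oxidative metabolism and, after ischemia, for dedifferentiation, re-entry into the cell cycle and secretion of inflammatory and matrix signals.

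The 6 libraries held 16183617 to 18384022 reads, recovered from the steps of the FPKM values. The median coefficient of variation between replicates was 3.32% in Sham and 3.68% in H/R over the 7011 genes at 5 FPKM or more. The first principal component of the 6 libraries held 58.4% of the variance and separated the groups. One RNA gene, Gm23935, ranged from 1697 to 21700 FPKM without following the groups, and with its log2 level as a covariate 484 genes were called. General epithelial and renal transcripts were present, with all 10 on a list that includes Krt8, Krt18, Cdh1, Epcam and Pax8 above the limit. The genes that define the proximal tubule were largely missing. Only 3 of 13 passed the limit (Lrp2, Aqp1 and Ggt1), and Slc34a1, Slc5a2 and Hnf4a had means of 0.0126, 0.0331 and 0.00563 FPKM. Slc22a6 and the thick limb gene Umod were at 0 in all 6 libraries.

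H/R cells differed from Sham cells in many genes by small amounts. The genes called numbered 522 of 10840 (4.82%), of which 204 (1.88%) were higher and 318 (2.93%) lower in H/R. Lactate export, glycolysis, sterol synthesis, growth signals and genes of NF-kB and inflammation stood on the higher side. DNA replication, mitosis and the integrated stress response stood on the lower. On the log2(FPKM + 1) scale 4 called genes reached 2-fold and 27 reached 1.5-fold, and the median size of a called change was 0.34. By the ratio of mean FPKM 13 called genes reached 2-fold, 9 higher and 4 lower. Over all 10840 genes the median difference was -0.03, with 4300 higher and 6540 lower, and 5% of genes lay below -0.24 and 5% above 0.19. The share of calls that were higher depended on the scaling, at 39.1% as deposited, 60.1% when libraries were scaled by median ratios and 58.2% when they were quantile-normalized. Libraries did not overlap between the groups in all 522 called genes and in 38.1% of all 10840. In bulk RNA, fewer cells of a type and less RNA per cell cannot be told apart.

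**Figure D1:**
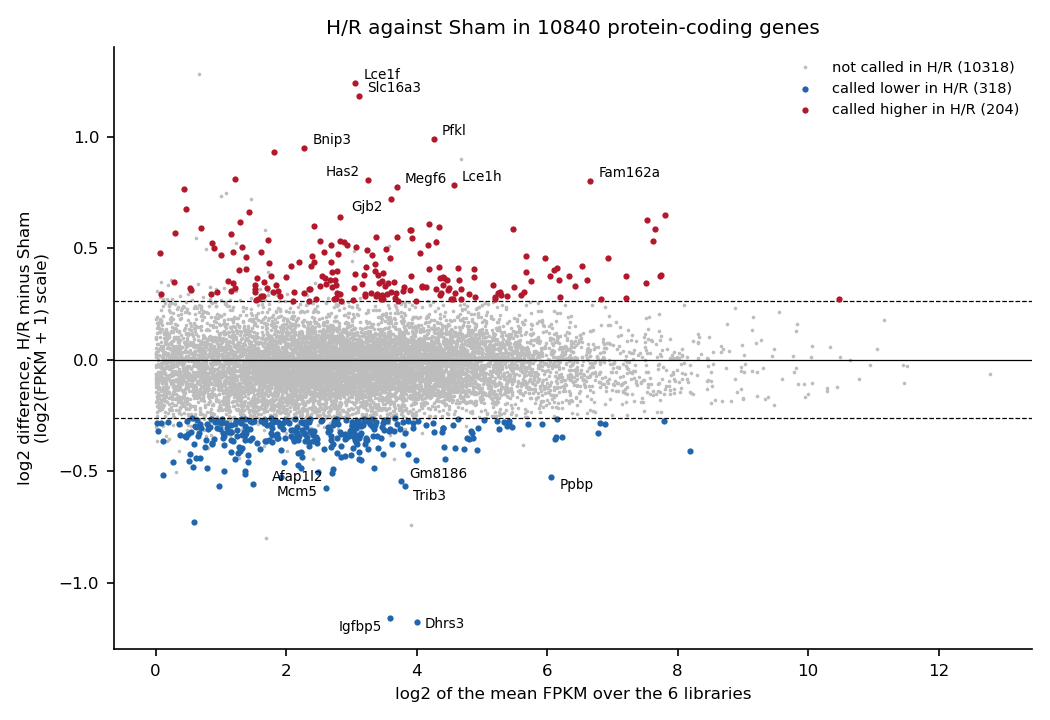
Each point is 1 of the 10840 genes, with the log2 mean FPKM over the 6 libraries on the horizontal axis and the log2 difference between H/R and Sham on the vertical axis. The 204 genes called higher are red, the 318 called lower are blue, and dashed lines mark 1.2-fold, so that most called genes sit close to those lines while Lce1f, Slc16a3, Dhrs3 and Igfbp5 stand farthest out among the called genes.

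The 12 largest rises and the 12 largest falls, taken among called genes that reached 5 FPKM in their higher group and did not overlap, are named here. The rises were Lce1f, Slc16a3, Pfkl, Bnip3, Has2, Fam162a, Lce1h, Megf6, Gjb2, Inhba, Idi1 and Ldha. The falls were Dhrs3, Igfbp5, Mcm5, Trib3, Gm8186, Ppbp, Afap1l2, Rec8, Mcm2, Tcf19, Synpo and Ccne1. Of the rises, 5 (Slc16a3, Pfkl, Bnip3, Fam162a and Ldha) belong to glycolysis and to genes known as HIF targets, and 3 of the falls (Mcm5, Mcm2 and Ccne1) belong to the start of DNA replication. Has2, which makes hyaluronan, was at 6.63, 6.92 and 6.45 FPKM in Sham and 12.2, 12.2 and 12.7 FPKM in H/R, a 1.86-fold rise (log2 0.80 ± 0.04, adjusted p = 3.37e-05). The groups were far apart.

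**Figure D2:**
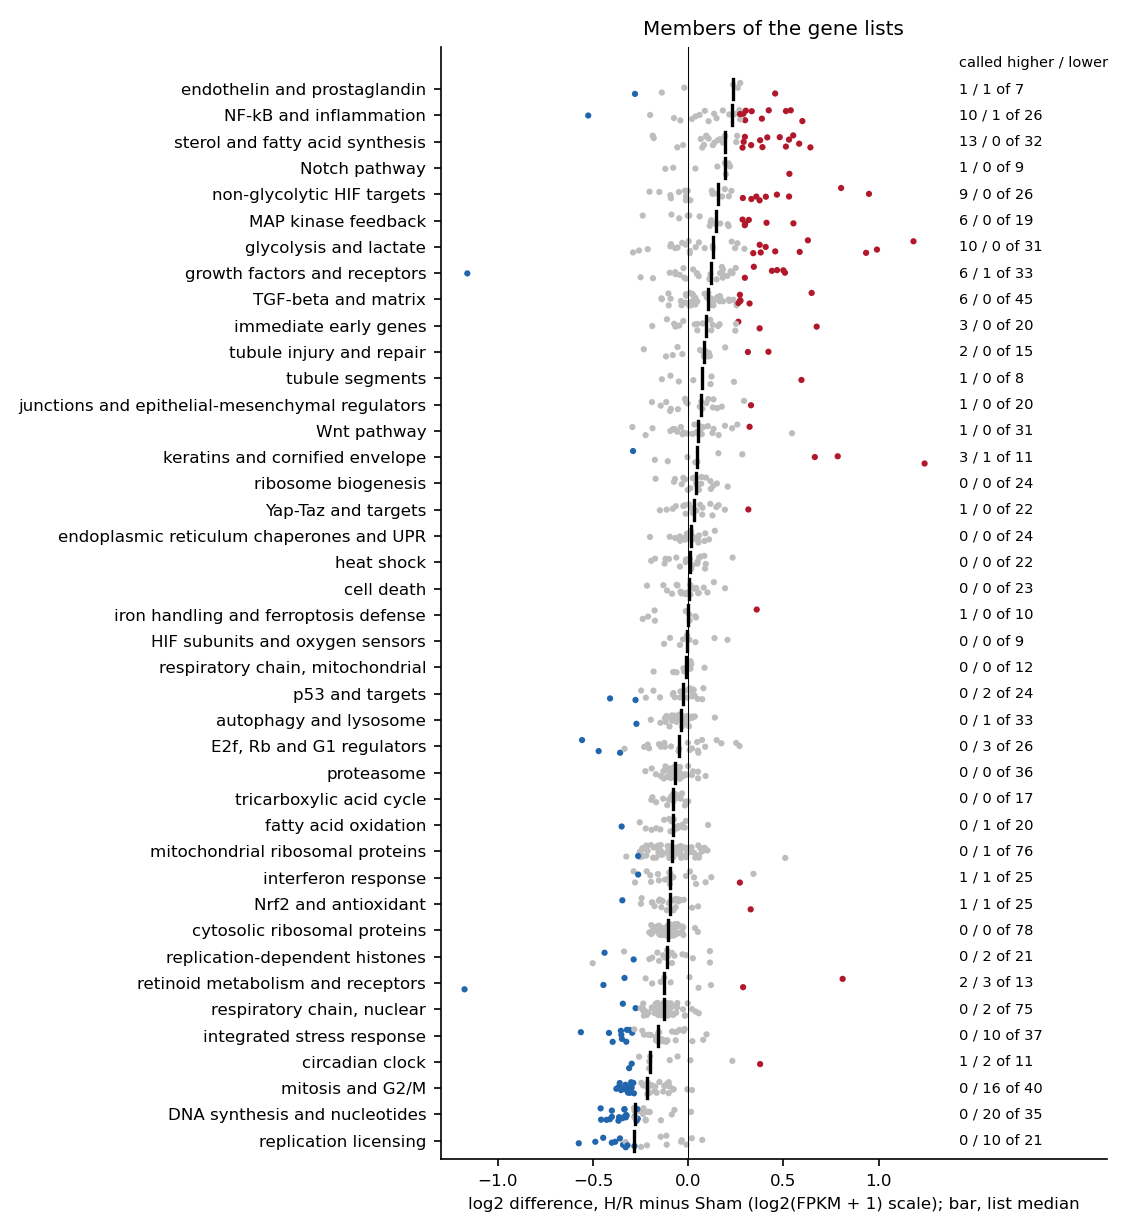
Each row is a gene list and each point a member, placed by its log2 difference between H/R and Sham, with members called higher in red, called lower in blue and the rest grey, and marker lists not drawn. The black bar is the list median, which ran among the lists drawn from -0.28 for replication licensing to 0.24 for the endothelin and prostaglandin list of 7 genes (-0.02 with a filter at 5 FPKM), and the counts at the right give the calls.

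Glycolysis and the lactate branch rose in part. Of the 31 measured genes of that list, 10 were called higher and 0 lower, the median was 0.13 against -0.03 for all genes, and 22 of 31 were higher. With limma voom on the recovered reads 13 were called higher and 2 lower. Slc16a3 (ENSMUSG00000025161), the lactate exporter MCT4, lay on chromosome 11 (120948480 to 120960868). It was at 4.99, 4.72 and 4.99 FPKM in Sham and 12.7, 11.96 and 12.5 FPKM in H/R, a 2.53-fold rise (log2 1.18 ± 0.04, adjusted p = 5.61e-06, 436 to 1181 reads). Each H/R library was more than 2-fold above each Sham library. Pfkl, the liver-type phosphofructokinase that commits glucose to glycolysis, was at 12.4, 12.9 and 12.3 FPKM in Sham and 26.7, 26.0 and 24.9 FPKM in H/R (2.07-fold, log2 0.99 ± 0.04, adjusted p = 1.67e-05). Pdk1, the kinase that closes the entry of pyruvate into mitochondria, went from 2.001, 2.16 and 2.13 to 4.81, 4.70 and 5.26 FPKM (2.35-fold, log2 0.93 ± 0.05, adjusted p = 6.17e-05). Neither gene's groups came near each other.

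The abundant enzymes of the lower pathway rose less. Ldha, which turns pyruvate into lactate, rose 1.55-fold from 145 ± 4.26 to 224 ± 9.62 FPKM (SD, n = 3, log2 0.63 ± 0.04, adjusted p = 6.17e-05). Pgk1, the first ATP-producing step, rose 1.504-fold from 162 ± 3.20 to 243 ± 4.80 FPKM (SD, n = 3, log2 0.59 ± 0.03, adjusted p = 1.67e-05). Tpi1, Pgm2, Aldoa, Pgam1 and Pfkp were the other 5 called, with log2 values from 0.34 to 0.46. Eno1 and Gpi1 passed the adjusted p at 0.25 and 0.26 without reaching 1.2-fold. Glucose entry did not follow. Slc2a1, the main glucose transporter, was at 45.5 ± 0.934 and 48.4 ± 1.12 FPKM (SD, n = 3, log2 0.09 ± 0.03, adjusted p = 0.0825). Hk2, which traps glucose as its phosphate, was at 33.6 ± 1.70 and 33.8 ± 1.85 FPKM (SD, n = 3, log2 0.01 ± 0.05, adjusted p = 0.943), and Gapdh also read 0.01 with an adjusted p of 0.947.

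The HIF genes themselves were not called, with 0 of 9 subunits and sensors in either direction, 1 at an unadjusted limma p under 0.05 (Egln1) and 0 by voom. Hif1a was at 20.7, 20.9 and 20.8 FPKM in Sham and 19.2, 19.98 and 21.4 FPKM in H/R, and the groups overlapped (log2 -0.04 ± 0.07, adjusted p = 0.752, exact two-sided permutation p = 0.4 where 3 against 3 cannot go below 0.1). HIF is regulated mainly at the protein level, which was not measured. Egln1, the main oxygen sensor, was at 19.0 ± 0.187 and 22.1 ± 1.11 FPKM (SD, n = 3) with a log2 difference of 0.21 ± 0.05, under 1.2-fold. Of 26 HIF targets outside glycolysis, 9 were called higher and 0 lower, with a median of 0.16.

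Among those targets the mitophagy receptor Bnip3 rose most, from 3.49, 2.94 and 2.59 FPKM in Sham to 6.96, 6.70 and 6.47 FPKM in H/R (2.23-fold, log2 0.95 ± 0.13, adjusted p = 0.00277). Fam162a, a mitochondrial protein tied to hypoxic cell death, rose 1.75-fold from 73.9, 67.5 and 79.2 to 138, 127 and 122 FPKM (log2 0.80 ± 0.06, adjusted p = 0.000195). Every H/R library was above every Sham library in both. The secreted factors Angptl4, an inhibitor of lipoprotein lipase, and Vegfa, the main angiogenic factor, rose by 0.53 ± 0.06 and 0.41 ± 0.07. Enzymes that modify collagen rose together, with 4 of 5 called. P4ha1 and P4ha2, subunits of collagen prolyl hydroxylase, read 0.47 and 0.29, Plod2, a lysyl hydroxylase, 0.36, and Lox, the crosslinking lysyl oxidase, 0.37. Ero1l, which oxidizes disulfides in the endoplasmic reticulum, was the ninth at 0.33. The textbook hypoxia genes Adm, at -0.05, and Ddit4, at -0.20, were not called (adjusted p = 0.729 and 0.0542).

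Promoter windows from RefSeq (GRCm38.p6, 250 bases before to 50 after each gene's start) were matched to 8707 of the 10840 genes, 80.3%. The letters ACGTG are a form of the core of the element that HIF binds, and no other form was searched. They occurred on either strand in 30.1% of the matched genes and in 21.8% of 27025 genes with a window. They occurred in 19 of 31 glycolysis genes (61.3%) and in 6 of the 10 called. In HIF targets outside glycolysis they occurred in 14 of 19 matched genes (73.7%). In lists whose calls were lower they occurred in 11 of 29 matched genes of DNA synthesis (37.9%), 12 of 34 of mitosis (35.3%) and 4 of 16 of licensing (25.0%). Among genes called higher they occurred in 40 of 140 matched. Fewer than 80% of the genes were matched in the HIF target, licensing and called-higher sets. Directions of change were known when the windows were read, and a match is a description, not a site of binding. The 150 bases before the start are shown for 6 genes called higher that were chosen because their windows hold ACGTG. The windows of the called genes Pfkl and Pdk1 did not hold these letters. Sequences run in the gene's own 5' to 3' direction with matches in capitals (CACGT is the same motif on the other strand, and overlapping matches run together).
Slc16a3, chr11:120948917-120949066, + strand: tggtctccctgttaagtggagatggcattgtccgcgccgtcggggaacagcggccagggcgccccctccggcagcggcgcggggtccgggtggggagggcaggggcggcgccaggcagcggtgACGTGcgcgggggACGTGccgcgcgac
Bnip3, chr7:138909507-138909656, - strand: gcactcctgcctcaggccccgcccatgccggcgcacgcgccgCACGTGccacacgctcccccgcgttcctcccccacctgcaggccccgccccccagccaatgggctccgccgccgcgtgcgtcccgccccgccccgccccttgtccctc
Ldha, chr7:46845654-46845803, + strand: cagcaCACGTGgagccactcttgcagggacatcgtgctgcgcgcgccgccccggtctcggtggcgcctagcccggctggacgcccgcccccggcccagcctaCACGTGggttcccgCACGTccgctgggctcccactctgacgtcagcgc
Pgk1, chrX:106186950-106187099, + strand: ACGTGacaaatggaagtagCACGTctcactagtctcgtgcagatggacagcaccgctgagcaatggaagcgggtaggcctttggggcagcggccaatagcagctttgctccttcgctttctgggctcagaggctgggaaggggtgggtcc
Fam162a, chr16:36071562-36071711, - strand: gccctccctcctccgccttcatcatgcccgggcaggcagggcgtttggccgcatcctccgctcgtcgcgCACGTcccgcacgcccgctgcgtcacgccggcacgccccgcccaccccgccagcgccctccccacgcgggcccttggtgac
P4ha1, chr10:59323146-59323295, + strand: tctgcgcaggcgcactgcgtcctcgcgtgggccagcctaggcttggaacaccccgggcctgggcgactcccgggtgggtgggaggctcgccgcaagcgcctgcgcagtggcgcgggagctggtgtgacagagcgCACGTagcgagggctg
Slc16a3 held a match at -27 and -14 from the start and P4ha1 at -16. Ldha held 5 matches, 2 pairs of which overlap as the palindrome CACGTG, and in Bnip3 the pair at -108 and -107 is a single palindrome.

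**Figure D3:**
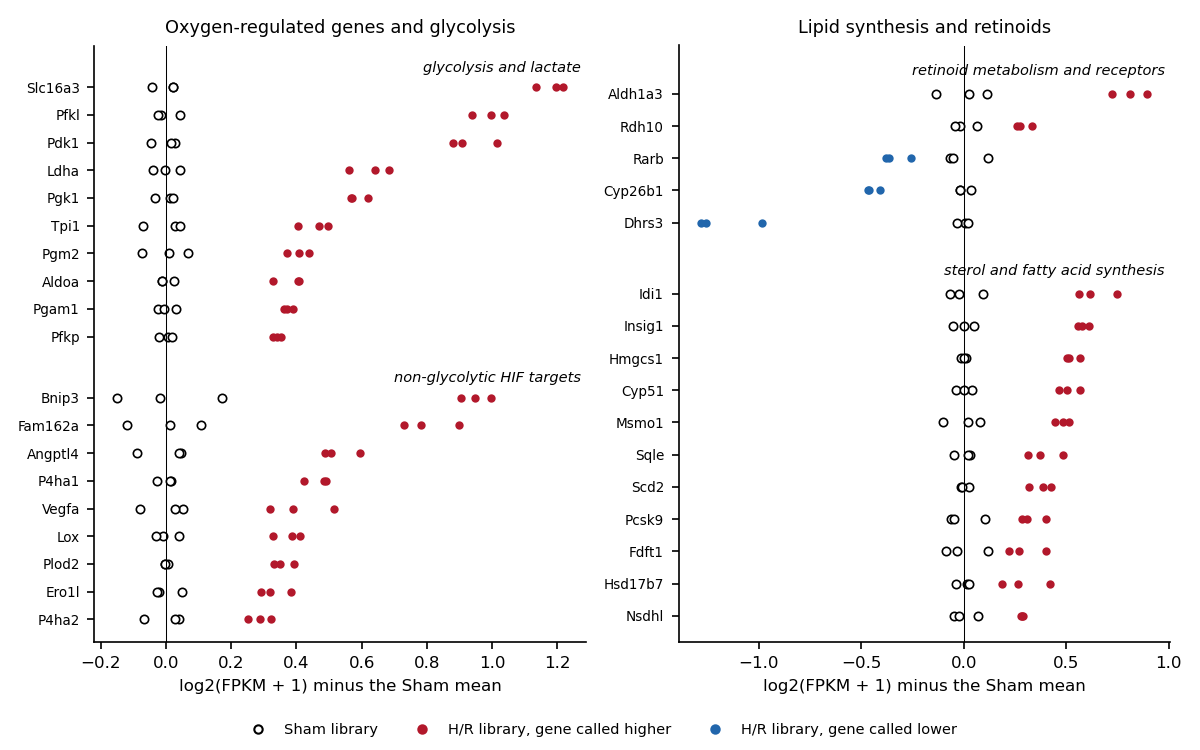
Each point is 1 library, placed by its log2(FPKM + 1) minus the Sham mean of that gene, with Sham libraries as open circles and H/R libraries in red where the gene was called higher and blue where called lower. The left panel shows the called genes of the glycolysis and HIF target lists and the right panel called genes of the retinoid and lipid lists, of which 11 of the 13 lipid genes are drawn. No H/R library reaches the Sham range in any of these genes.

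Genes of oxidative metabolism gave few calls. Of 75 nuclear genes of the respiratory chain, 72 were lower, with a median of -0.13, while 0 were called higher and 2 lower. These were Atp5g1, a subunit of the ATP synthase ring (log2 -0.34 ± 0.06, adjusted p = 0.00702), and Ndufb10, a complex I subunit (-0.28 ± 0.04, adjusted p = 0.0032). The 12 genes of the chain encoded in mitochondria had a median of -0.01 with 6 higher and 6 lower, and 0 were called or reached an unadjusted limma p under 0.05. In the tricarboxylic acid cycle 16 of 17 genes were lower (median -0.08, 0 called and 9 lower at an unadjusted limma p under 0.05), and in fatty acid oxidation 19 of 20 (median -0.08). Cpt1a, which admits long-chain fatty acids to mitochondria, was the only call there. It was at 10.7, 10.3 and 10.8 FPKM in Sham and 7.98, 8.54 and 7.80 FPKM in H/R (log2 -0.35 ± 0.04, adjusted p = 0.00114), with no overlap. The cytosolic ribosomal proteins moved alike, with 76 of 78 lower, a median of -0.11 and 0 called, though 53 were lower at an unadjusted limma p under 0.05, as were 47 of the 75 respiratory genes. By voom 0 ribosomal proteins, 0 genes of the tricarboxylic acid cycle and 2 respiratory genes were called. Short genes were lower in general. The median difference was -0.07 in the shortest of 4 equal classes by exon length and -0.01 in the longest, and its part in these results was not tested.

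Sterol synthesis genes were called in the higher direction only. Of 32 genes for sterol and fatty acid synthesis 13 were called higher and 0 lower, the median was 0.19 and 28 were higher. Idi1, which makes the isoprenoid building block, was at 5.73, 5.20 and 5.01 FPKM in Sham and 8.67, 8.30 and 9.59 FPKM in H/R (1.67-fold, log2 0.64 ± 0.07, adjusted p = 0.00147). Insig1, the sterol-regulated brake on SREBP, rose from 11.9, 12.4 and 11.5 to 18.8, 18.0 and 18.3 FPKM (log2 0.58 ± 0.04, adjusted p = 0.000185). The groups were apart in both genes. Hmgcs1 and Cyp51, early and late steps of the pathway, rose by 0.53 ± 0.06 and 0.51 ± 0.04. Calls fell on 9 of 19 sterol enzymes, 3 of 6 uptake and regulatory genes and 1 of 7 fatty acid genes (Scd2). Srebf2, the regulator of the pathway, read 0.18 ± 0.03 and Fasn 0.19 ± 0.03, both under 1.2-fold.

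Genes of DNA replication were called in 1 direction. Of 21 genes that license and fire origins 10 were called lower and 0 higher, with a median of -0.28. Mcm5 (ENSMUSG00000005410), a subunit of the replicative helicase on chromosome 8 (75109569 to 75128439), was at 7.89, 7.47 and 7.10 FPKM in Sham and 4.61, 4.84 and 4.63 FPKM in H/R (0.63-fold, log2 -0.58 ± 0.06, adjusted p = 0.000789). Its partners Mcm2 and Mcm3 fell by 0.49 ± 0.05 and 0.45 ± 0.06, and Cdt1, which loads the helicase, by 0.40 ± 0.07. Gins2, of the helicase activator, fell by 0.38 ± 0.10. The licensing count was 6 without Sham replicate 3, without H/R replicate 1 and without H/R replicate 3, and also 6 under both scalings, with no filter on low values, with a filter at 5 FPKM and with only the 6 libraries in the fit.

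At the replication fork calls were also lower. Of 35 genes for DNA synthesis and nucleotide supply 20 were called lower and 0 higher, 34 were lower and the median was -0.28. Pold1, the catalytic subunit of polymerase delta, went from 4.76, 4.41 and 4.94 to 3.32, 3.27 and 2.85 FPKM (log2 -0.46 ± 0.06, adjusted p = 0.00235). Prim1, the primase, went from 3.51, 3.14 and 3.09 to 1.95, 2.22 and 2.099 FPKM (-0.46 ± 0.06, adjusted p = 0.0024). No H/R library of either gene reached the Sham range. Rrm2, the ribonucleotide reductase subunit, fell by 0.40 ± 0.04, the nucleotide hydrolase Dut by 0.43 ± 0.06, the single-strand binding protein Rpa1 by 0.40 ± 0.04 and the chromatin assembly factor Chaf1b by 0.41 ± 0.06. Calls covered 4 of 6 nucleotide genes, 10 of 19 polymerase and fork genes and 6 of 10 chromatin and repair genes. The 20 calls became 13 after median-ratio scaling and 9 with a filter at 5 FPKM, which also tests fewer genes.

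The letters TTTGGCGC, TTTCCCGC, TTTCGCGC and TTTGCCGC, forms of the element that E2F factors bind, occurred on either strand in 4.89% of the matched promoter windows and in 2.60% of all genes with a window. They occurred in 9 of the 29 matched genes of DNA synthesis, 31.0%, and in 1 of the 34 of mitosis, 2.94%. Among licensing genes, of which 16 of 21 were matched, they occurred in 8, 50.0%. Windows of 50 bases are shown for 3 called licensing genes that held a match, with the match in capitals (GCGGGAAA is TTTCCCGC on the other strand, and in Mcm5 2 matches overlap).
Mcm5, chr8:75109339-75109388, + strand: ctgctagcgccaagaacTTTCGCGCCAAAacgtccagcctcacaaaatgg
Cdc6, chr11:98907981-98908030, + strand: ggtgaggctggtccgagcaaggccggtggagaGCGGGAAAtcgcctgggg
Mcm7, chr5:138172004-138172053, - strand: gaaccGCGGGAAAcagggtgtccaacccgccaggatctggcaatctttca
Cdc6, which loads the helicase with Cdt1, fell from 1.88 ± 0.354 to 1.26 ± 0.0761 FPKM (SD, n = 3, log2 -0.34 ± 0.09, adjusted p = 0.0389), and Mcm7 from 17.0 ± 0.344 to 13.8 ± 0.256 FPKM (SD, n = 3, -0.28 ± 0.04, adjusted p = 0.0023). These 2 genes were named for their windows, after their values were seen.

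E2f1, which drives entry into S phase, was at 3.32, 3.69 and 3.63 FPKM in Sham and 1.68, 2.22 and 2.40 FPKM in H/R (0.59-fold, log2 -0.56 ± 0.09, adjusted p = 0.00664). It was 1 of 3 calls, all lower, among 26 E2f, Rb and G1 regulators, whose median of -0.05 was 0.05 with a filter at 5 FPKM. The others were the cyclins E, Ccne1 at -0.47 ± 0.07 and Ccne2 at -0.36 ± 0.08. Ccnd1, the cyclin of early G1, read 0.17 ± 0.03 and the inhibitor Cdkn1a 0.01 ± 0.02, and neither was called. Mitotic genes were called lower in 16 of 40 and higher in 0, with 39 of 40 lower and a median of -0.21. Mki67, the proliferation marker, went from 9.28, 9.85 and 10.2 to 7.54, 7.69 and 7.40 FPKM (log2 -0.34 ± 0.04, adjusted p = 0.0023), without overlap. Anln, a scaffold of cytokinesis, fell by 0.38 ± 0.03 and the checkpoint kinase Bub1b by 0.36 ± 0.05, and Spc25 of the kinetochore, the mitotic cyclin Ccnb2 and Birc5, also called survivin, were called lower too. Without Sham replicate 3 the mitotic calls numbered 10. Of 21 replication-dependent histone genes, which share near-identical copies and are uncertain, Hist1h1b and Hist1h1c were called lower.

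**Figure D4:**
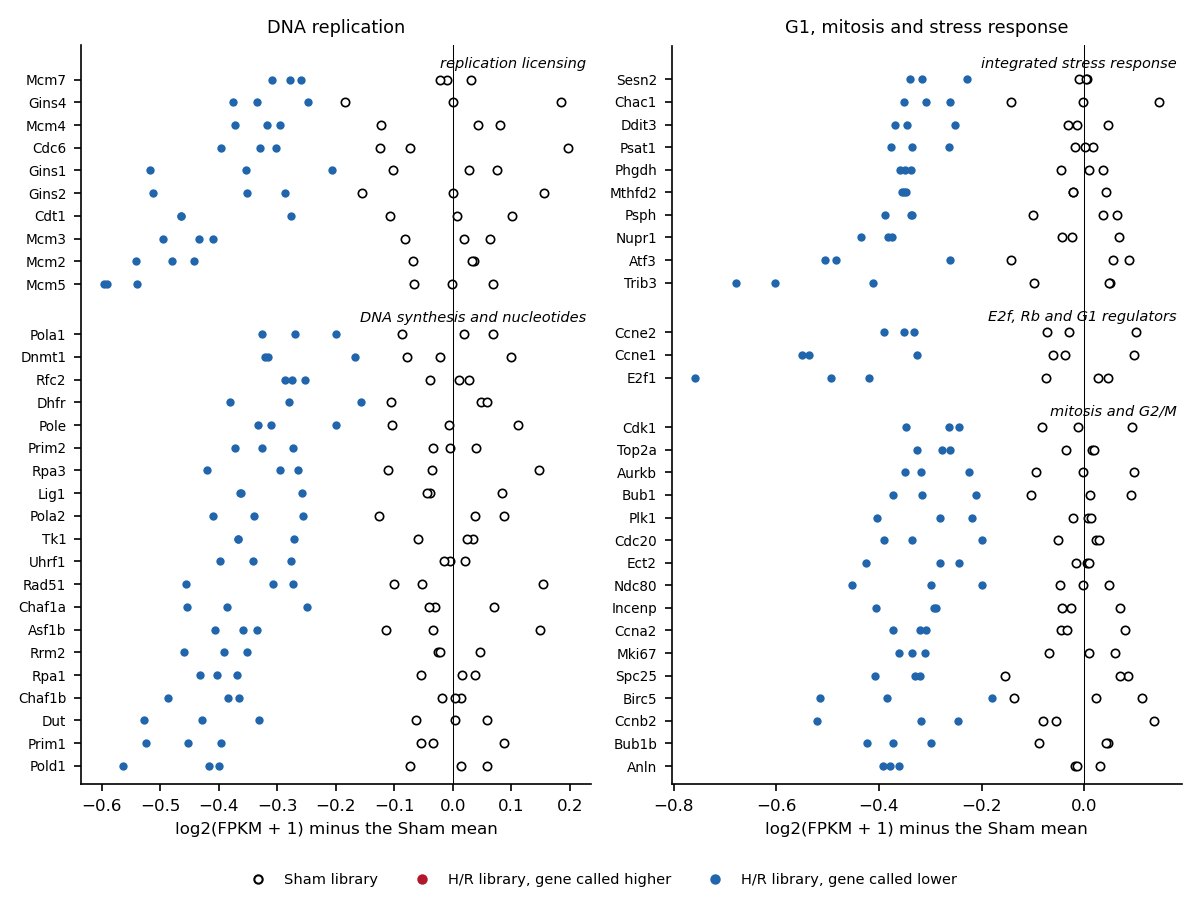
Each point is 1 library, placed by its log2(FPKM + 1) minus the Sham mean of that gene, with Sham as open circles and H/R in blue. The left panel holds the 10 licensing and 20 DNA synthesis genes called lower, and the right panel the 10 stress response, 3 G1 and 16 mitotic genes called lower. All H/R libraries lie left of all Sham libraries, with the widest gap for Mcm5 among the licensing genes.

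The integrated stress response, in which Atf4 turns on genes of amino acid supply, was called in the lower direction. Of 37 genes 10 were called lower and 0 higher, 34 were lower and the median was -0.16. Trib3, an Atf4 target that restrains Akt, was at 15.8, 17.6 and 17.6 FPKM in Sham and 12.5, 10.8 and 10.2 FPKM in H/R (0.66-fold, log2 -0.56 ± 0.07, adjusted p = 0.00171). The stress factors Atf3 and Nupr1 fell by 0.42 ± 0.08 and 0.40 ± 0.04. Serine and one-carbon enzymes fell with them, Psph and Mthfd2 by about the same 0.35 as Phgdh, the entry to serine synthesis, which went from 84.1 ± 2.42 to 65.8 ± 0.490 FPKM (SD, n = 3, adjusted p = 0.000453). All 12 tRNA synthetases were lower, from -0.24 to -0.06, and 0 were called. Atf4 itself read -0.17 ± 0.03, under 1.2-fold.

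Other stress programmes gave few calls. Of 24 chaperones and sensors of the endoplasmic reticulum and 22 heat shock genes 0 were called, with medians of 0.01 in both, and of 23 cell death genes 0 were called. At an unadjusted limma p under 0.05 there were 4, 7 and 4 genes of these lists, and voom called 0 in each. Among 24 p53 targets, Gdf15, a secreted stress cytokine, fell from 338, 332 and 333 to 238, 264 and 251 FPKM (log2 -0.41 ± 0.04, adjusted p = 0.000565), and the death receptor Fas by 0.28 ± 0.06. Gdf15 was among the most abundant falls and its groups were well apart. Of 25 Nrf2 and antioxidant genes, Hmox1, which breaks down heme, fell from 76.7, 79.0 and 80.2 to 62.6, 61.3 and 61.0 FPKM (-0.35 ± 0.03, adjusted p = 0.000229). Gstm1, a glutathione transferase with close paralogs, rose by 0.33 ± 0.06.

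Immediate early genes and the feedback of MAP kinase signalling were partly higher. Egr1, the factor that the study overexpressed in the EGR1OV group, was at 6.20, 6.91 and 6.09 FPKM in Sham and 8.57, 7.59 and 7.48 FPKM in H/R (1.23-fold, log2 0.26 ± 0.07, adjusted p = 0.0348, exact two-sided permutation p = 0.1, the smallest possible). The groups did not overlap, but the call sat at the threshold. It was lost without Sham replicate 1 or 3 and without any 1 of the H/R replicates, where the log2 value was 0.21 to 0.29 and the adjusted p between 0.0551 and 0.103. Egr2 went from 0.966, 0.709 and 0.820 to 1.76, 2.39 and 1.66 FPKM (2.33-fold, log2 0.67 ± 0.10, adjusted p = 0.0049), resting on 42 to 149 reads. Fosl1, an AP-1 subunit, rose by 0.38 ± 0.05 and was the other call among 20 immediate early genes, with 0 lower. Of 19 feedback genes 6 were called higher and 0 lower, with a median of 0.14. Phlda1, induced by growth factors, rose from 11.7, 9.60 and 9.75 to 13.5, 16.1 and 17.3 FPKM (0.55 ± 0.11, adjusted p = 0.0129). The ERK phosphatases Dusp5 and Dusp6 rose by 0.41 ± 0.05 and 0.32 ± 0.03, and the phosphatases Dusp2 and Dusp10 were also called. Dusp1 ran the other way at -0.24 ± 0.03, under 1.2-fold.

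Genes of NF-kB and inflammation were called mostly higher. Of 26 genes measured of 39 listed, 10 were called higher and 1 lower, 22 were higher and the median was 0.23. Among the calls higher were 4 of 11 subunits and inhibitors and 5 of 10 chemokines and cytokines measured. Those 10 were of 20 listed, and Tnf, Il6 and Il1b were below the limit. Ccl2, the chemokine that draws monocytes, was at 4.65, 3.63 and 3.99 FPKM in Sham and 5.97, 6.55 and 7.63 FPKM in H/R (1.64-fold, log2 0.60 ± 0.10, adjusted p = 0.00595). Vcam1, an adhesion molecule for leukocytes, went from 2.40, 2.55 and 2.57 to 4.12, 4.09 and 4.07 FPKM (0.54 ± 0.04, adjusted p = 0.000209). Cxcl10, a T cell chemokine, went from 6.62, 5.83 and 5.94 to 9.08, 9.73 and 8.71 FPKM (0.51 ± 0.05, adjusted p = 0.000515). Every H/R library was above every Sham library in these 3 genes. Cx3cl1, a membrane-bound chemokine, rose by 0.42 ± 0.07, and among the inhibitors Nfkbie and Nfkbia rose by 0.39 ± 0.04 and 0.29 ± 0.05. Ppbp, a chemokine of platelets and myeloid cells, fell from 76.5, 81.0 and 78.8 to 54.3, 54.2 and 54.8 FPKM (-0.53 ± 0.05, adjusted p = 0.000368). Leukocyte markers gave calls in the lower direction only, with 10 of 15 measured, 0 called higher and 2 lower (Lyz2 at -0.29 ± 0.06 and Adgre1 at -0.36 ± 0.09). Their summed level was 158 to 165 FPKM in Sham and 135 to 145 FPKM in H/R, and Ptprc, which defines leukocytes, had a mean of 0.482 FPKM. Their part in these results was not tested. The interferon response gave 1 call higher (Gbp2, 0.27 ± 0.05) and 1 lower (Tap1, -0.26 ± 0.05) of 25.

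**Figure D5:**
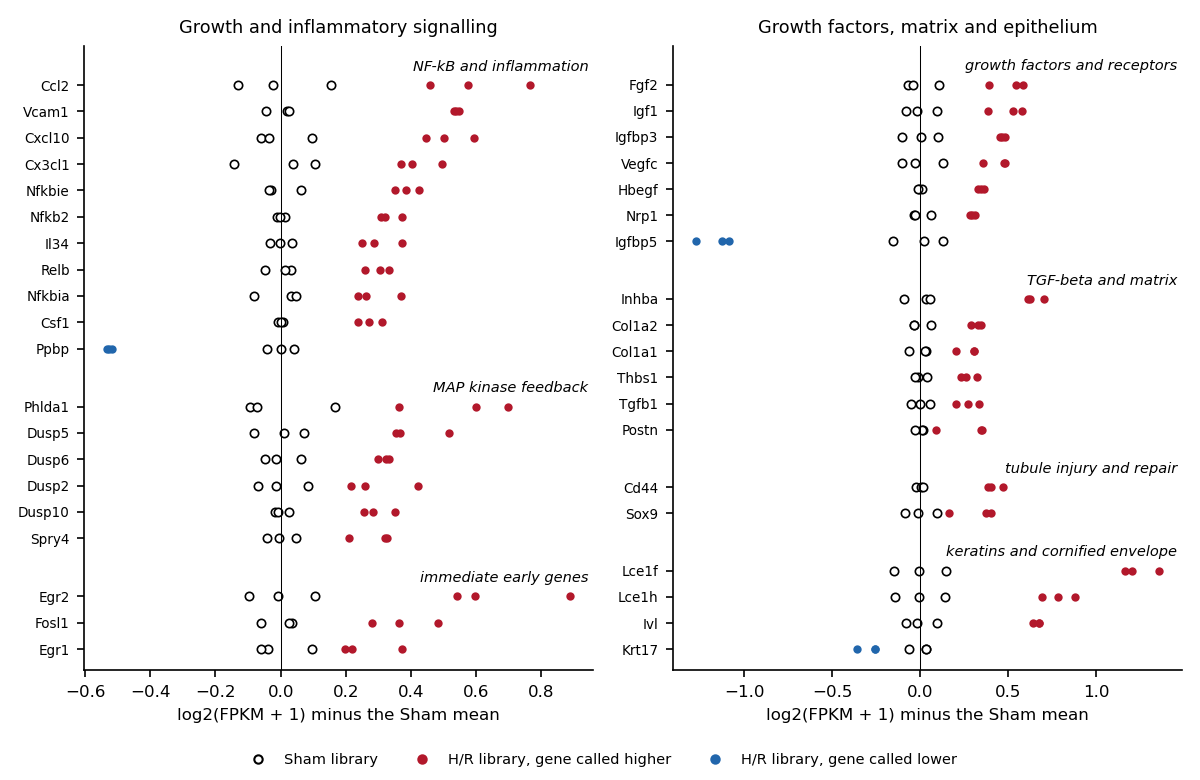
Each point is 1 library, placed by its log2(FPKM + 1) minus the Sham mean of that gene, with Sham as open circles and H/R in red where called higher and blue where called lower. Immediate early, MAP kinase feedback and NF-kB genes are on the left, and growth factor, matrix, injury and envelope genes on the right. Igfbp5 lies more than 1 log2 unit below Sham and Lce1f more than 1 above.

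Growth factors were called mostly higher. Of 33 genes 6 were called higher and 1 lower, with a median of 0.12. Inhba, the activin subunit of the TGF-beta family, was at 178, 181 and 163 FPKM in Sham and 269, 267 and 284 FPKM in H/R (1.57-fold, log2 0.65 ± 0.06, adjusted p = 0.000515), among the most abundant rises and far from overlap. Fgf2 and Igf1 rose by 0.51 ± 0.08 and 0.50 ± 0.07 from 1.89 ± 0.197 and 1.36 ± 0.146 FPKM (SD, n = 3). Igfbp3, which binds IGF, and the lymphatic factor Vegfc rose by 0.47 ± 0.06 and 0.44 ± 0.07. Igfbp5, another IGF-binding protein, fell from 17.3, 18.8 and 15.2 to 6.47, 7.28 and 7.50 FPKM (0.41-fold, -1.16 ± 0.08, adjusted p = 0.000102). The lowest Sham library was still above every H/R library. Jag1, a ligand of Notch receptors, rose 1.45-fold from 163, 164 and 157 to 228, 236 and 238 FPKM (0.53 ± 0.03, adjusted p = 3.68e-05) and was the only call of 9 Notch genes. The Wnt feedback gene Axin2 (0.32 ± 0.07) was the only call of 31 Wnt genes, and Nt5e, which makes adenosine, the only one of 22 Yap-Taz genes (0.32 ± 0.06).

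TGF-beta and matrix genes were called in the higher direction only. Of 45 such genes 35 were higher, with a median of 0.10. Calls higher numbered 6 (13.3%, against 4.82% called of all 10840 genes) and calls lower 0. Besides Inhba these included the collagens Col1a2 (0.32 ± 0.04) and Col1a1 (0.27 ± 0.06), Thbs1, which activates latent TGF-beta and stood at 1282 ± 31.3 and 1549 ± 52.5 FPKM (SD, n = 3, 0.27 ± 0.03), and Tgfb1 (0.27 ± 0.04). All 14 matrix proteins measured were higher. Without Sham replicate 3 the calls numbered 3. Most markers of fibroblasts and pericytes moved the same way, with 6 of 10 measured and 4 called higher. These were Col1a1, Col1a2, Postn and the pericyte proteoglycan Cspg4 (0.48 ± 0.07). Of the 6 markers 1 was lower, at -0.23 and without overlap, and voom called 5 higher and 1 lower. Their summed level was 40.9 to 43.2 FPKM in Sham and 51.1 to 51.9 FPKM in H/R, while Dcn had a mean of 0.0517 FPKM and Lum was at 0 in all 6 libraries. The part of such cells was not tested.

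Retinoid genes split. Dhrs3 (ENSMUSG00000066026), which returns retinal to retinol and is a known target of retinoic acid, fell most of all, from 22.7, 22.1 and 23.0 FPKM in Sham to 8.85, 10.9 and 8.69 FPKM in H/R (0.42-fold, log2 -1.18 ± 0.07, adjusted p = 6.17e-05). Cyp26b1, which degrades retinoic acid, fell by 0.45 ± 0.06. The receptor Rarb fell by 0.33 ± 0.09, and its call was lost in each fit that left out 1 library. Aldh1a3, which makes retinoic acid, rose from 1.61, 1.45 and 1.19 to 3.24, 2.98 and 3.49 FPKM (0.81 ± 0.10, adjusted p = 0.00171), and Rdh10, the step before it, by 0.29 ± 0.04. No library of either group reached the other in these 5 genes. All 6 receptors and targets measured were lower, with 1 called. These 5 calls were among 13 genes and became 2 with a filter at 5 FPKM, which leaves out the low genes.

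Genes of injury and epithelial identity gave calls in the higher direction only. They were 2 of 15 injury and repair genes (13.3%), 1 of 8 tubule segment genes (12.5%) and 1 of 20 genes of junctions and epithelial-mesenchymal regulation (5.0%). Over all 10840 genes 4.82% were called. Sox9, the factor of tubule repair, was at 12.3, 14.1 and 13.0 FPKM in Sham and 14.8, 17.3 and 17.7 FPKM in H/R (1.26-fold, log2 0.31 ± 0.07, adjusted p = 0.0227, exact two-sided permutation p = 0.1). The groups did not overlap. Its call was lost without Sham replicate 1 or 3 and without H/R replicate 2 or 3, where the log2 value was 0.27 to 0.31 and the adjusted p between 0.0684 and 0.0752, and it was at 0.0519 with the Gm23935 covariate. Cd44, the hyaluronan receptor, rose from 77.8, 79.5 and 80.2 to 104, 105 and 110.3 FPKM (0.42 ± 0.04, adjusted p = 0.000451). The kidney injury marker Havcr1 was at 115 ± 7.14 and 97.6 ± 1.03 FPKM (SD, n = 3, log2 -0.23 ± 0.04, adjusted p = 0.00922), past the adjusted p but under 1.2-fold. The injury marker Lcn2 was at 151 ± 4.58 and 161 ± 2.79 FPKM (SD, n = 3, log2 0.09 ± 0.03, adjusted p = 0.0681) and was not called. Cdh1, the epithelial cadherin, read 0.07 ± 0.02, and Epcam, an adhesion molecule of simple epithelia, rose by 0.33 ± 0.03. Hsd11b2, the collecting duct enzyme that inactivates glucocorticoid, rose from 16.1, 16.7 and 15.3 to 25.4, 25.3 and 23.4 FPKM (1.54-fold, 0.59 ± 0.04, adjusted p = 0.000115), with the groups well apart.

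Cornified envelope genes, textbook products of skin, included the largest called rise. Lce1f was at 4.51, 5.12 and 3.99 FPKM in Sham and 11.7, 13.2 and 11.4 FPKM in H/R (2.66-fold, log2 1.24 ± 0.09, adjusted p = 0.000159) on 48 to 176 reads. Lce1h rose by 0.79 ± 0.10 and the envelope precursor Ivl by 0.66 ± 0.06, while the keratin Krt17 fell by 0.29 ± 0.04. Only 5 of 29 envelope genes were above the limit, 3 of them called. The Lce1 genes are near copies of each other, so their single values are uncertain. The summed level of muscle markers, 5 of 8 measured, was 247 to 259 FPKM in Sham and 218 to 231 FPKM in H/R, with Acta1, skeletal actin, called lower (-0.33 ± 0.05). Of 3 podocyte markers Podxl (0.36 ± 0.07) was called higher and Synpo, an actin-binding protein (-0.49 ± 0.05), lower, with the slit protein Nphs1 below the limit. Of 4 endothelial markers 0 were called or reached an unadjusted limma p under 0.05.

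Among smaller lists, the prostaglandin synthase Ptgs2 rose from 50.0, 55.0 and 52.6 to 68.7, 69.1 and 79.9 FPKM (log2 0.46 ± 0.06, adjusted p = 0.00326), and Ptgs1 fell by 0.28 ± 0.05. Endothelin itself, Edn1, read 0.26 ± 0.03, just under 1.2-fold. The clock repressor Cry1 rose by 0.38 ± 0.07, and the clock genes Ciart and Nr1d2 fell by 0.31 ± 0.06 and 0.30 ± 0.07. Acsl4, which loads membranes with the lipids oxidized in ferroptosis, rose by 0.36 ± 0.05, and Pck2, the mitochondrial PEP carboxykinase, fell by 0.32 ± 0.04. Of 36 proteasome and 24 ribosome biogenesis genes 0 were called by limma or by voom, with 18 and 6 at an unadjusted limma p under 0.05. The lysosomal channel Mcoln1 and the mitochondrial ribosomal protein Mrps33 were single calls, both lower.

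The remaining large changes belonged to no list. Megf6, a secreted protein with EGF-like repeats, rose by 0.77 ± 0.07, and Gjb2, the gap junction protein connexin 26, by 0.72 ± 0.06. The adaptor Afap1l2, the meiotic cohesin Rec8 and Tcf19, a gene of the G1 to S transition, fell by 0.51 ± 0.05, 0.50 ± 0.06 and 0.49 ± 0.07. Gm8186, a predicted gene, fell by 0.54 ± 0.11 on 37 to 71 reads. Some genes moved far without being called. Lars2, the mitochondrial leucyl-tRNA synthetase, read 0.90 with an adjusted p of 0.495, and the predicted gene Gm17545 read 1.28 with an adjusted p of 0.0978.

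EGR1OV cells gave more calls against the same Sham libraries, 27.7% of the 10840 genes at the same thresholds. Both comparisons share their Sham libraries, so the values are only set side by side and their difference was not tested. The medians in H/R and EGR1OV were -0.28 and 0.03 for DNA synthesis, 0.19 and -0.11 for sterol and fatty acid synthesis, and 0.13 and 0.15 for glycolysis. NF-kB genes had medians of 0.23 and 1.14, and interferon genes of -0.10 and 3.25.

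Of the 112 called genes that the naming rule gave, 83 were called in every setting in which they were tested, 16 or 17 settings at 1.2-fold, and 0 reversed. The other 29 lost their call in at least 1 setting, 15 of them in more than 5. Gins2 and Mrps33 lost theirs in 11 settings and Postn in 10. When single libraries were left out, 27 lost their call in at least 1 fit. They were Adgre1, Axin2, Birc5, Ccnb2, Ccne2, Ciart, Col1a1, Dusp2, Egr1, Fas, Gbp2, Gins2, Hist1h1b, Krt17, Lyz2, Mcoln1, Mrps33, Ndufb10, Nr1d2, Podxl, Postn, Ptgs1, Rarb, Sox9, Tap1, Tgfb1 and Thbs1. The number lost was 17, 12 and 19 without Sham replicate 1, 2 and 3 and 10, 14 and 22 without H/R replicate 1, 2 and 3. In those fits the size of the log2 difference was 0.18 to 0.47, and the adjusted p was up to 0.138.

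Genes outside the 10840 gave 72 calls among 3145 tested, 2.29%. They included 24 processed pseudogenes, 4 higher and 20 lower, whose reads can be shared with their parent genes.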

How the data were processed

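RNA was measured in 9 libraries, 3 each of Sham, H/R and EGR1OV cells, with groups read from the titles. The authors deposited FPKM values, 1 column per library and 1 row per gene. The submitters' processing notes list Bowtie2 2.2.3, HISAT2 2.1.0, TopHat2 and mm9 without saying what each was used for. The gene positions in the table, however, equalled GENCODE M21 (GRCm38) in 94.6% of genes, and 99.8% of identifiers were found there, and the table's own coordinates are used. The counter and the annotation are not given in the sources used here. In 26 rows a symbol that had become a date was restored from the identifier, and 53 rows that share a symbol were kept apart. The table also carries gene ontology terms, used in the closing section.

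The deposited values were put on the log2(FPKM + 1) scale, where changes of low genes are understated, and tested two-sided with limma 3.58.1 in R 4.3.3 (lmFit, then eBayes with a trend). All 9 libraries entered 1 fit of the 13985 genes that averaged 0.5 FPKM or more, with Benjamini-Hochberg adjustment over all of them. The thresholds, an adjusted p under 0.05 and 1.2-fold, follow the study's methods for this comparison. With GENCODE M21 exon lengths, 94.0% of 162948 low values were whole read counts within 0.02, which gave the depth. A count of 3 reads was taken as the floor, and it speaks of counting error only, because the reads carry no molecular identifiers.

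The genes described, the 48 gene lists and the tests were chosen with earlier results of these data known. Genes named were the 12 largest rises and 12 largest falls among called genes of at least 5 FPKM without overlap, up to 5 called genes per list, and Egr1, Sox9, Hif1a, Havcr1, Lcn2, Mki67 and Cdh1. Others are named as examples chosen after their values were seen. A few genes chosen this way are not reported here. On simulated libraries with 200 changed genes among 13972, 153 were called in their true direction, along with 4 that had not been changed. How far these counts apply to the deposited libraries and to differences near 1.2-fold was not tested. Alternatives were other pseudocounts, filters, scalings, fold thresholds and fits, limma voom on the recovered reads, and each library left out. A covariate for Gm23935 was added after seeing the data. Tables and motifs were handled in Python 3.11.15 with pandas 2.3.3 and numpy 2.4.6, exact tests with scipy 1.17.1, and figures with matplotlib 3.10.9.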

Additional observations from a re-analysis of the deposited data

How the results depend on the processing

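The number of calls stayed within 1.5-fold of 522 under most settings, and the split between directions was less stable than that number. The genes called also changed. Of the 522, 397 were also called with median-ratio scaling, 405 with quantile normalization, 428 with the Gm23935 covariate and 518 by voom. Leaving out 1 library kept 361 to 394 of them. Calls lower numbered 318 as reported, but 204 with no filter on low values, 189 with a filter at 5 FPKM, 193 when scaled by median ratios and 202 when quantile-normalized. The share of calls that were higher was 39.1% as reported, 60.1% and 58.2% under these scalings and 50.0% at a 2-fold threshold. The median of all genes moved from -0.03 to 0.005 with median ratios, and H/R size factors were near 0.976 against 1.00 to 1.01 in Sham. With limma voom on the recovered reads 874 genes were called, 308 higher and 566 lower. Without a fold threshold there were 1534 (553 and 981), and at 2-fold on the log2(FPKM + 1) scale 4 (2 and 2), as their construction implies. Leaving out each library in turn gave 407 to 485 calls, 170 to 195 higher and 232 to 290 lower, with 38.1% to 43.9% higher. The replicate block gave 457 calls (192 higher and 265 lower). Same-numbered Sham and H/R libraries had correlations of -0.01, -0.19 and -0.01 in their deviations, and different-numbered ones -0.09 to 0.11. These values gave no sign that the numbers pair the samples. With 3 libraries per group they cannot show that no pairing existed. The calls of Egr1 and Sox9 were also lost with no filter on low values (adjusted p = 0.088 and 0.0627) and with only the 6 libraries in the fit (0.0539 and 0.0506), and that of Egr1 in limma without trend (0.0527). The cause of these losses was not tested. With 3 libraries per group and the depth given above, changes under 1.2-fold and genes near 1 FPKM are the least certain.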

Other observations

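Several gene groups outside the lists held more than 1 call. They were noticed after the values were seen and are given as values only. Members of these groups that were not called are left out, so no share can be set beside the 4.82% called of all 10840 genes. Of the 522 called genes, 356 belonged to no list. Gjb5, a connexin of the gap junction beta family, was at 0.805 ± 0.240 FPKM in Sham and 1.66 ± 0.0913 FPKM in H/R (SD, n = 3, log2 0.57 ± 0.11, limma adjusted p = 0.0132), beside Gjb2 at 0.72. Integrin subunits that bind collagen and fibronectin were also called higher, Itga2 by 0.33, Itga5 by 0.28 and Itgav by 0.37, together with the collagens Col5a3 (0.62 ± 0.12) and Col8a1 (0.50 ± 0.08). The oxidase Nox4 rose by 0.32 ± 0.04 from 19.8 ± 0.444 FPKM, and the mitochondrial adenylate kinase Ak4, known as a hypoxia-responsive gene, by 0.40 ± 0.06 from 1.94 ± 0.185 FPKM (SD, n = 3).

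Single genes outside the leukocyte list are given here, all of them falls picked after their values were seen. Of the 10 members of that list 8 were lower, 2 of them called, and 2 were higher. Genes like these that did not fall were not counted. Marco, a scavenger receptor of macrophages, was at 2.13 ± 0.632 and 0.875 ± 0.234 FPKM (SD, n = 3, log2 -0.73 ± 0.15, limma adjusted p = 0.0185). Pf4 fell by 0.52 ± 0.10, Ncf1 by 0.32 ± 0.08, Ccl6 by 0.30 ± 0.07 and Adamdec1 by 0.28 ± 0.07. In the replication checkpoint, Clspn fell by 0.49 ± 0.06 and Chek1 by 0.44 ± 0.07, and Mybl2, a regulator of late cell cycle genes, fell by 0.36 ± 0.06.

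Among 991 ontology terms with at least 15 genes, covering 9324 genes, DNA replication initiation had 12 of 19 genes called lower and mitotic chromosome condensation 4 of 15. Called higher were 8 of 23 genes of cholesterol biosynthetic process and 6 of 19 of endodermal cell differentiation. Vascular endothelial growth factor receptor signaling followed with 5 of 19 and glycolytic process with 6 of 24. Over all 10840 genes 1.88% were called higher and 2.93% lower. The 6 genes of endodermal cell differentiation were Col8a1, Hmga2, Inhba, Itga5, Itgav and Lamb3, which encode matrix proteins, integrins, activin and a chromatin factor. These terms were picked for their counts, so the counts are no test.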
